A study of Danio rerio with 15 samples.

Results

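The genes described here are 9 that mark cells of the immune system: ptprc, lcp1 and coro1a for leukocytes in general, spi1b for the myeloid line, mpeg1.1 and irf8 for macrophages, and mpx, lyz and mmp9 for neutrophils. They were chosen by name, with earlier results of these data known, and found by their Ensembl identifiers among the 33752 listed in every count table. The identifiers are ENSDARG00000071437 (ptprc), ENSDARG00000023188 (lcp1), ENSDARG00000054610 (coro1a), ENSDARG00000000767 (spi1b), ENSDARG00000055290 (mpeg1.1), ENSDARG00000056407 (irf8), ENSDARG00000019521 (mpx), ENSDARG00000057789 (lyz) and ENSDARG00000042816 (mmp9). All 9 were abundant enough to be tested, among 21277 genes that were. They were measured by RNA sequencing in testis of the zebrafish Danio rerio, all fish being adult and wild type, in 4 control testes (replicates 1, 3, 4 and 5), 5 depleted testes (titled Depletion) and 5 recovering testes (titled Recovery). A further control, replicate 2, was not analysed here. The labels say neither how the testes were depleted, nor how long they recovered, nor whether a replicate was 1 animal or a pool. The series title places the study in the hormonal control of spermatogenesis, by follicle-stimulating hormone, retinoic acid and androgens.

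The vertebrate testis holds resident immune cells. Macrophages sit among the steroid-producing Leydig cells and around the tubules, where they clear dying cells, while neutrophils circulate in blood and enter tissue after damage. Leukocytes are recognised by proteins made mostly by blood-derived cells: the surface phosphatase CD45 (ptprc), the actin-bundling protein L-plastin (lcp1) and the actin regulator coronin 1A (coro1a). The factors PU.1 (spi1b) and Irf8 (irf8) direct progenitors to myeloid and macrophage fates, and each mature type carries its own tools, such as the pore-forming protein Mpeg1 in macrophages and the granule enzymes myeloperoxidase (mpx) and lysozyme (lyz) in neutrophils. Matrix metalloproteinase 9 (mmp9) cuts extracellular matrix. It is stored by neutrophils, but other cells can make it too.

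Leukocyte and macrophage genes stood far higher in depleted testes than in control testes, and at levels in between in recovering testes. The pan-leukocyte, myeloid and macrophage genes, 6 of the 9, rose 4.92-fold to 15.9-fold with depletion, and in each of them the lowest depleted testis exceeded the highest control, as it did for 25.5% of all tested genes. Of the neutrophil genes, mpx also passed the test in depleted against control testes, lyz did not, and mmp9 averaged 38.0 ± 29.3 CPM in depleted (SD, n = 5) against 52.8 ± 3.43 CPM in control testes (SD, n = 4) without passing. The mpx call with depletion was lost in 8 of 14 runs with a library left out and in 6 of 10 other alternative settings. From depleted to recovering testes 7 of the 9 genes fell. Among them, mpx lost its call in 5 of 14 runs with a library left out and in 2 of 10 other alternative settings. Between recovering and control testes none of the 9 passed the test. Of all tested genes, 34.2% rose with depletion, 30.5% fell from depleted to recovering testes and 0.451% differed between recovering and control testes.

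Library totals ran from 8617589 to 48646941 counts in control, 8123444 to 10059498 in depleted and 8661834 to 25035915 in recovering testes. Levels are given as CPM, counts scaled to 1000000 per library with edgeR's TMM factors. A gene was taken as changed when its adjusted p (edgeR quasi-likelihood test, Benjamini-Hochberg over all tested genes) was under 0.05. The labelled states were checked against germ cells: the summed level of 12 germ cell genes, among them ddx4 and sycp3, was 8298 to 9331 CPM in control, 36.4 to 4201 CPM in depleted and 6863 to 10451 CPM in recovering testes. All values are shares of a whole-testis library. A share cannot tell more leukocytes from more of a transcript per leukocyte, and it grows when the RNA of other cells is lost. The replicates are called biological in the series text, so p-values measure the spread between such samples.

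The pan-leukocyte gene ptprc, which encodes CD45, a phosphatase on the surface of white blood cells, stood at 24.6, 11.9, 10.4 and 15.0 CPM in control replicates 1, 3, 4 and 5. It stood at 113, 75.0, 106, 90.5 and 187 CPM in depleted replicates 1 to 5, and at 55.6, 20.0, 15.3, 46.8 and 32.8 CPM in recovering replicates 1 to 5. The depleted testes lay above all the others without overlap, and recovering replicates 2 and 3 lay inside the control range. The log2 fold change was 2.89 ± 0.43 (SE; adjusted p = 0.000130, edgeR) in depleted against control testes, a 7.39-fold rise, and -1.75 ± 0.38 (SE; adjusted p = 0.00220, edgeR) in recovering against depleted testes. L-plastin, lcp1, bundles actin filaments in leukocytes. It stood at 19.5, 6.86, 7.81 and 9.99 CPM in the control testes, 117, 93.9, 117, 102 and 297 CPM in the depleted testes and 64.6, 17.2, 11.0, 27.8 and 28.9 CPM in the recovering testes, in the same replicate order. Its mean ± SD was 11.0 ± 5.80 CPM over the 4 control, 146 ± 85.5 CPM over the 5 depleted and 29.9 ± 20.8 CPM over the 5 recovering testes, and its depleted range of 93.9 to 297 CPM did not meet the others. Its rise with depletion was 13.2-fold, a log2 fold change of 3.72 ± 0.57 (SE; adjusted p = 0.000158, edgeR), and it fell in recovering testes by a factor of 4.88 (edgeR adjusted p = 0.00214). Coronin 1A, which remodels actin in moving leukocytes, had the smallest rise of the called genes. Its gene coro1a stood at 55.2, 33.7, 28.2 and 30.9 CPM in the control testes, 146, 96.6, 125, 137 and 405 CPM in the depleted testes and 88.1, 35.1, 36.3, 58.4 and 45.7 CPM in the recovering testes. The depleted values lay above all others, with depleted replicate 5 far above the rest, and all recovering testes except replicates 1 and 4 lay inside the control range. The log2 fold change was 2.30 ± 0.44 (SE; adjusted p = 0.000648, edgeR) with depletion and -1.79 ± 0.40 (SE; adjusted p = 0.00265, edgeR) from depleted to recovering testes.

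The myeloid and macrophage genes had the 2 largest folds. The gene spi1b, for the transcription factor PU.1, stood at 7.62, 4.16, 3.52 and 3.93 CPM in the control testes, at 105, 37.4, 77.3, 31.0 and 129 CPM in the depleted testes and at 39.7, 5.16, 5.47, 11.6 and 17.2 CPM in the recovering testes, in the replicate order given above. Every depleted testis was above every control, while recovering replicate 1 was above depleted replicates 2 and 4. The log2 fold change was 3.99 ± 0.68 (SE; adjusted p = 0.000299, edgeR) with depletion, a 15.9-fold rise, and -2.27 ± 0.57 (SE; adjusted p = 0.00512, edgeR) from depleted to recovering testes. The macrophage gene mpeg1.1, whose product forms pores in engulfed bacteria, stood at 10.1, 4.37, 2.68 and 2.58 CPM in control, 94.0, 38.7, 82.7, 55.0 and 114 CPM in depleted and 39.7, 10.9, 3.79, 9.67 and 20.4 CPM in recovering testes. Here too the depleted testes were all above the controls, and recovering replicate 1 reached just above depleted replicate 2. It rose 15.8-fold, a log2 fold change of 3.98 ± 0.68 (SE; adjusted p = 0.000311, edgeR), and the change from depleted to recovering testes was -2.19 ± 0.57 (SE; adjusted p = 0.00619, edgeR). Without control replicate 1 the rise of mpeg1.1 was 4.59 on the log2 scale. Without recovering replicate 1 the fall from depleted testes was -2.78 for mpeg1.1 and -2.95 for spi1b, all still called. The factor irf8, which zebrafish need to form embryonic macrophages, stood at 10.5, 7.28, 6.28 and 6.69 CPM in the control testes, 59.2, 44.9, 59.2, 50.3 and 123 CPM in the depleted testes and 31.3, 11.3, 5.69, 15.4 and 17.8 CPM in the recovering testes. Its depleted values met neither of the others, and recovering replicate 3 was below every control. Its log2 fold change was 3.13 ± 0.46 (SE; adjusted p = 0.000120, edgeR) with depletion and -2.05 ± 0.40 (SE; adjusted p = 0.00131, edgeR) from depleted to recovering testes.

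**Figure D1:**
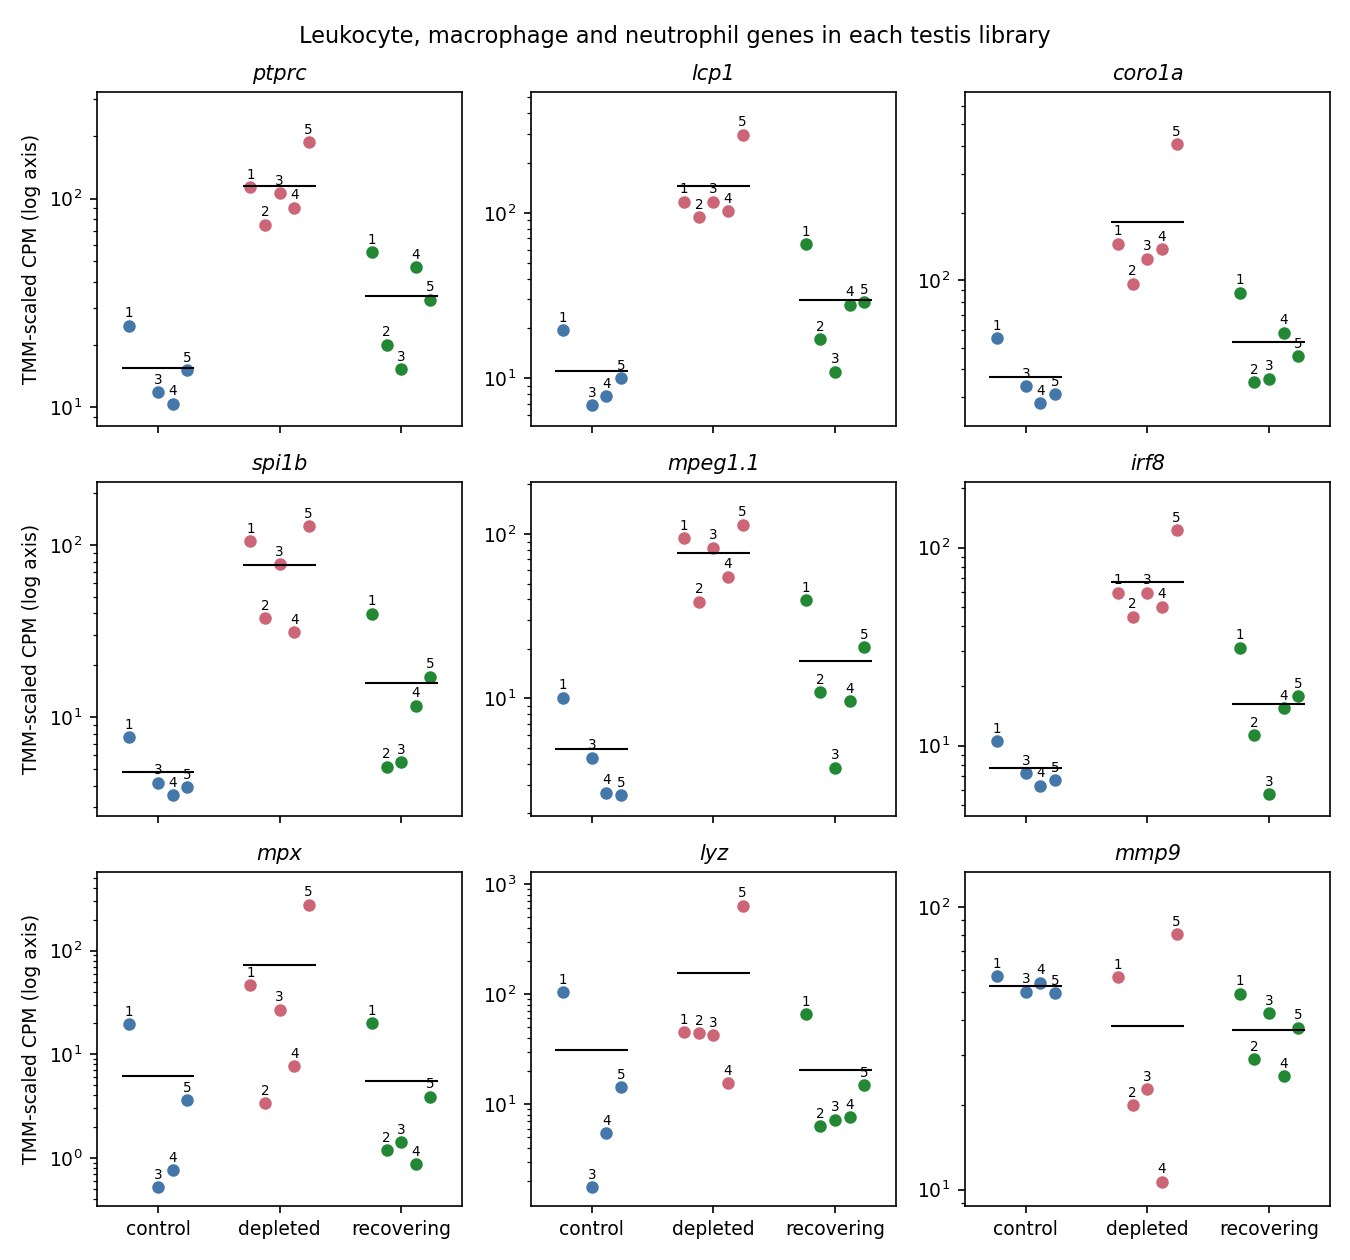
Level of each of the 9 genes in every library, as TMM-scaled CPM on a log axis. Points are libraries, the small number is the replicate, and the horizontal bar is the group mean. In the upper 6 panels the depleted testes (red) lie above all control testes (blue), whereas mpx, lyz and mmp9 overlap, and in every panel control replicate 1, depleted replicate 5 and recovering replicate 1 are the highest of their group.

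The neutrophil granule genes mpx and lyz varied widely between testes of the same state. Myeloperoxidase, mpx, makes hypochlorous acid from hydrogen peroxide in neutrophils. It stood at 19.6, 0.520, 0.766 and 3.59 CPM in the control testes, 46.6, 3.39, 27.0, 7.71 and 279 CPM in the depleted testes and 20.1, 1.19, 1.41, 0.869 and 3.90 CPM in the recovering testes. The groups overlapped: control replicate 1 was above depleted replicates 2 and 4. In control replicate 3 the value rested on 5 counts, with a Clopper-Pearson 95% interval of 0.169 to 1.21 CPM, an interval that covers counting error only. The log2 fold change of mpx was 3.59 ± 1.48 (SE; adjusted p = 0.0461, edgeR) in depleted against control testes. Without depleted replicate 5 it was 1.86 and no longer passed (edgeR adjusted p = 0.203), and without control replicate 1 it was 5.35 (adjusted p = 0.0173). The call was also lost without control replicate 3, 4 or 5, without depleted replicate 1 and without recovering replicate 2, 3 or 5, at log2 fold changes of 3.18 to 3.69 and adjusted p of 0.0504 to 0.104. Over all alternatives the adjusted p ran from 0.00315 to 0.203. From depleted to recovering testes it fell by 3.76 on the log2 scale (SE 1.37, edgeR adjusted p = 0.0303), which became -1.96 (adjusted p = 0.163) without the same library and -5.28 (adjusted p = 0.0104) without recovering replicate 1. Leaving out recovering replicate 2, 3, 4 or 5 gave -3.66 to -3.48 with adjusted p of 0.0603 to 0.0664, and over all alternatives the adjusted p of this comparison ran from 0.00273 to 0.163.

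Lysozyme, lyz, breaks bacterial cell walls and in zebrafish is made by neutrophils and some macrophages. It stood at 103, 1.77, 5.44 and 14.2 CPM in control, 45.3, 44.3, 42.6, 15.6 and 636 CPM in depleted and 65.9, 6.35, 7.25, 7.61 and 14.8 CPM in recovering testes. Depleted replicate 5 alone was above control replicate 1, and the other 4 depleted testes lay inside the control range. The log2 fold change of 2.33 ± 1.33 (SE; adjusted p = 0.134, edgeR) did not pass the test, and neither did that of -2.95 ± 1.25 (SE; adjusted p = 0.0564, edgeR) from depleted to recovering testes. Single libraries decided the first value: it was 0.31 without depleted replicate 5 (adjusted p = 0.806) and 4.42 without control replicate 1 (adjusted p = 0.0208). With control replicate 1, depleted replicate 5 and recovering replicate 1 all left out, a choice made after the values were seen, lyz was 2.38 higher on the log2 scale in depleted testes (edgeR adjusted p = 0.0102) and mpx 3.63 (adjusted p = 0.0119). From depleted to recovering testes lyz passed without control replicate 1, at -2.94 (adjusted p = 0.0376), without depleted replicate 4, at -3.17 (adjusted p = 0.0478), and without recovering replicate 1, at -4.12 (adjusted p = 0.0223). It also passed in the fit of only these 2 groups, at -2.94 (adjusted p = 0.04997). With all 3 highest libraries left out lyz was -2.06 from depleted to recovering testes (adjusted p = 0.0148). Among control testes the SD of log2 CPM was 2.24 for mpx and 2.45 for lyz, against a median of 0.265 over all tested genes. Of those genes, 99.4% had a smaller SD than mpx and 99.6% a smaller one than lyz.

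The matrix metalloproteinase gene mmp9 was the only one of the 9 with a lower mean in depleted than in control testes. It stood at 57.1, 50.3, 54.1 and 49.8 CPM in the control testes, at 56.6, 19.9, 22.7, 10.7 and 80.3 CPM in the depleted testes and at 49.4, 29.0, 42.3, 25.2 and 37.5 CPM in the recovering testes. The controls were close together, with an SD of log2 CPM of 0.0927 that was above that of only 8.87% of the tested genes. The depleted testes fell on both sides of them: replicate 5 was above every control, replicate 1 was within the control range, and replicates 2, 3 and 4 were below. The log2 fold change was -0.47 ± 0.45 (SE; adjusted p = 0.362, edgeR) in depleted against control, -0.052 ± 0.43 (SE; adjusted p = 0.924, edgeR) in recovering against depleted and -0.53 ± 0.45 (SE; adjusted p = 0.636, edgeR) in recovering against control testes. The first passed only in limma-voom with sample quality weights, at -1.06 (adjusted p = 0.0184). The second changed sign with the scaling, at 0.27 with total counts in place of TMM (adjusted p = 0.605). All 5 recovering testes lay below the lowest control for mmp9, the closest of them at 49.4 against 49.8 CPM. Of all tested genes 6.01% were lower in recovering testes without overlap, and 6.49% were higher. Unlike mmp9, mpx and lyz had an SD of log2 CPM of 2.24 and 2.45 among the same control testes. Which cells made the mmp9 transcript was not tested, so its level is not read as neutrophil content.

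Of the 9 genes, 7 rose and 0 fell in depleted against control testes, where 34.2% of all tested genes rose and 32.1% fell, 66.3% together. The ranges of 6 genes were higher without overlap, as were those of 25.5% of all tested genes, and those of 0 genes were lower, against 27.8% of all. The median log2 fold change was 3.13 over the 9 genes and 0.0322 over all tested genes. When total counts replaced TMM, the median of all genes moved by -0.37 to -0.34, 5565 genes rose and 8591 fell in place of 7273 and 6833, and the median of the 9 was 2.72. Then 6 of the 9 rose. The call that was lost was that of mpx, which was also lost in the fit of only these 2 groups (adjusted p = 0.0648). It was lost too with DESeq2 size factors in edgeR, with no filter, with libraries under 20000000 counts and at an adjusted p under 0.01. The mpx call thus failed in 6 of 10 such alternatives, and in 8 of 14 runs with a library left out. The calls of ptprc, lcp1, coro1a, spi1b, mpeg1.1 and irf8 held in every alternative run, with adjusted p no higher than 0.00361.

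**Figure D2:**
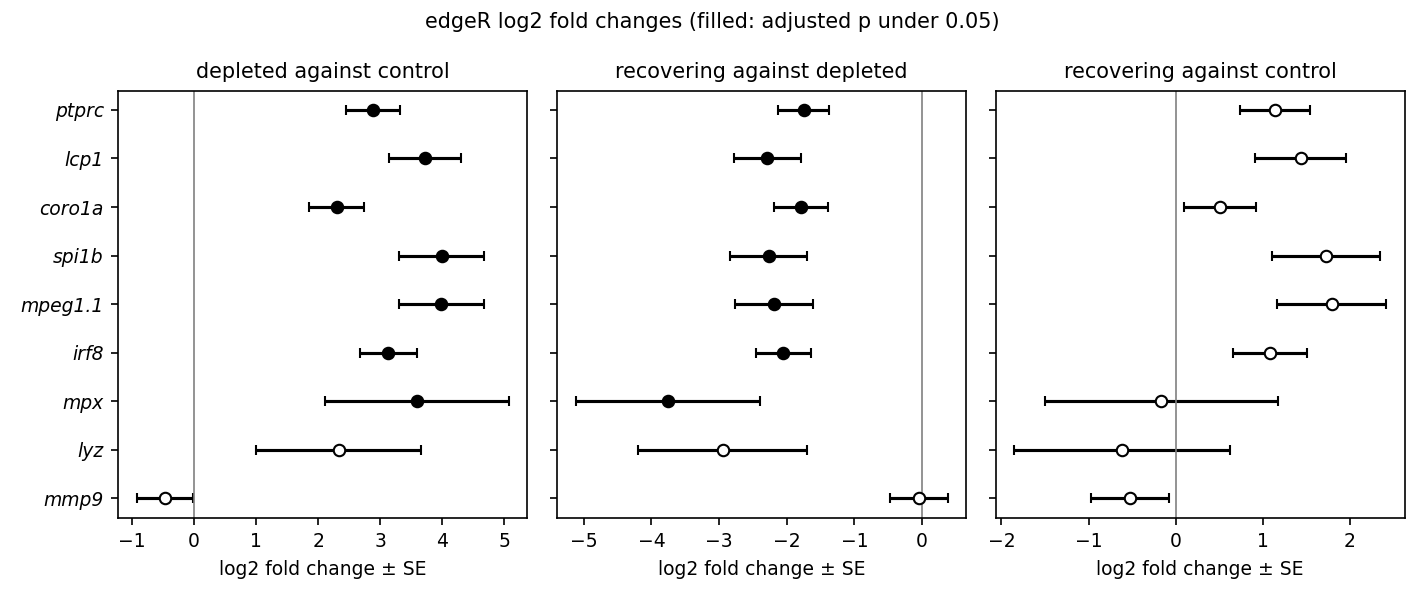
Log2 fold change of each gene in the 3 comparisons, with its standard error. Filled points passed an adjusted p under 0.05 in edgeR: 7 of 9 genes in each of the first 2 panels and 0 in the third, and the error bars of mpx and lyz are the widest in every panel.

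In recovering against depleted testes 7 of the 9 genes fell and 0 rose, against 30.5% of all tested genes that fell and 28.7% that rose, 59.2% together. The ranges of 4 genes, ptprc, lcp1, coro1a and irf8, were lower without overlap, as were 14.5% of all tested genes, and no range of the 9 was higher, against 18.8% of all. The median log2 fold change was -2.19 over the 9 genes and -0.0428 over all tested genes. With total counts the median of all genes moved by 0.31, 7665 genes rose and 4464 fell in place of 6098 and 6500, and the median of the 9 was -1.89. This comparison and the previous one share the depleted samples. The calls of these 4 genes and of spi1b and mpeg1.1 held in every alternative, with adjusted p up to 0.0201. That of mpx was lost in 5 of 14 runs with a library left out and in 2 of 10 other alternatives.

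Recovering testes were not shown to differ from control testes in any of the 9 genes. At an adjusted p under 0.05 edgeR called 0 of the 9, and 0.451% of all tested genes, 0.418% higher and 0.0329% lower in recovering testes. At an unadjusted p under 0.05 there were 5 of the 9, all higher in recovering testes: ptprc, lcp1, spi1b, mpeg1.1 and irf8. Of all 21277 tested genes, 3394 were under the same unadjusted p. The log2 fold changes of these 5 were 1.14, 1.43, 1.72, 1.79 and 1.08, with edgeR adjusted p from 0.175 to 0.229. Recovering replicate 1 carried part of these values: without it they were 0.89, 0.94, 1.04, 1.20 and 0.71, and 2 of the 9 genes had an unadjusted p under 0.05. The count of 3394 is of the fit with all libraries and is not the background for these 2. No count over all tested genes is given here for the fit without that library, so the 2 are not set against a general rate. For ptprc 3 of 5 recovering testes were above every control, and for irf8 4 of 5. The values of coro1a at 0.51, mpx at -0.17 and lyz at -0.62 had adjusted p of 0.614 to 0.971. DESeq2 called 0 of the 9 and 6.36% of all genes, the fit of only these 2 groups 0 of the 9 and 6.01% of all genes. Limma-voom with sample quality weights called 3 of the 9, ptprc, lcp1 and mpeg1.1, and 11.2% of all genes. In this fit their adjusted p lay between 0.0434 and 0.0497.

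In each state the same testis was the highest for each of the 9 genes in TMM-scaled CPM. This was control replicate 1 among the controls, depleted replicate 5 among the depleted and recovering replicate 1 among the recovering testes. With total counts in place of TMM, depleted replicate 1 was above depleted replicate 5 for spi1b (109 against 93.3 CPM) and mpeg1.1 (97.6 against 82.6 CPM). It was also slightly above for mmp9 (58.7 against 58.2 CPM). For mpx control replicate 1 stood at 5.46 times the next control, depleted replicate 5 at 5.99 times the next depleted and recovering replicate 1 at 5.16 times the next recovering testis. For ptprc the same 3 libraries stood at 1.64, 1.65 and 1.19 times the next. Another neutrophil granule gene, npsn, which encodes a protease, had the same 3 libraries highest, at 43.0, 348 and 56.4 CPM, a gene picked after its values were seen. Of the 7 other neutrophil genes tested, 3 had these 3 libraries highest, csf3r, npsn and mmp13a, and 4 did not. Among the latter, cebpa, cyba and ncf1 were highest in control replicate 5 of the controls, and ncf1 and cybb in replicate 1 of the depleted testes. Depleted replicate 5 was also the library with the lowest germ cell sum, at 36.4 CPM. Depleted replicates 1 and 3 held 113 and 106 CPM of ptprc with germ cell sums of 3104 and 136 CPM. Replicate 2, with the highest germ cell sum of the depleted testes (4201 CPM), was the lowest in 6 of the 9 genes. The summed level of 4 red blood cell genes, hbaa1, hbaa2, alas2 and gata1a, was 228 CPM in control replicate 1, where the controls ranged over 20.9 to 228 CPM. It was 2399 CPM in depleted replicate 5, in a depleted range of 486 to 2531 CPM, and 992 CPM in recovering replicate 1, in a recovering range of 209 to 1305 CPM. The summed stromal genes were also highest in depleted replicate 5 (8191 CPM) and recovering replicate 1 (2213 CPM), but in control replicate 5 among controls (360 CPM). The summed endothelial genes were highest in control replicate 1 (11.4 CPM) and recovering replicate 1 (37.7 CPM), but in depleted replicate 3 among depleted testes (136 CPM). Sertoli and Leydig sums were highest in other libraries in every state. The part that blood left in the tissue has in the neutrophil values was not tested.

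Counts of each gene were then set against those of ptprc in the same library, which compares the genes with each other and does not depend on how libraries are scaled. Over the 8 genes and 3 comparisons 24 differences were tested (exact permutation of samples, either direction, Benjamini-Hochberg over the 24), of which 4 passed, each at the smallest p that the design allows, 0.00794. The largest log2 differences among these 4 were those of mmp9. There were 2.32, 4.25, 5.19 and 3.31 mmp9 counts for each ptprc count in control replicates 1, 3, 4 and 5, but 0.5, 0.266, 0.213, 0.118 and 0.430 in depleted replicates 1 to 5 and 0.889, 1.45, 2.77, 0.538 and 1.14 in recovering replicates 1 to 5. The control and depleted ratios did not overlap, with a log2 difference of -3.73 (exact permutation p = 0.00794, adjusted 0.0476), nor did the recovering and depleted ratios, at 2.11 (exact permutation p = 0.00794, adjusted 0.0476). The log2 difference between recovering and control ratios, -1.62, did not pass (exact permutation p = 0.0238, adjusted 0.0816). In edgeR ptprc itself changed by 2.89 with depletion and -1.75 from depleted to recovering testes, and mmp9 by -0.47 and -0.052. The median over all tested genes was 0.0322 with depletion, so a gene that did not change would also fall against ptprc. How many of all tested genes would pass against ptprc was not tested. The macrophage gene mpeg1.1 rose more than ptprc with depletion, with 0.172 to 0.411 counts per ptprc count in control and 0.516 to 0.831 in depleted testes, a log2 difference of 1.20 (exact permutation p = 0.00794, adjusted 0.0476). So did lcp1, with 0.579 to 0.792 in control and 1.04 to 1.59 in depleted testes, a log2 difference of 0.80 (exact permutation p = 0.00794, adjusted 0.0476). With lcp1 in place of ptprc as the reference, the log2 difference of mpeg1.1 was 0.39 and did not pass. With that reference coro1a, at -1.55, and irf8, at -0.64, passed in depleted against control testes (exact permutation, adjusted p = 0.0333). Without recovering replicate 3 none of the 24 passed, the adjusted p of the 3 depleted against control differences being 0.0635 at unchanged size, and that of mmp9 in recovering against depleted testes 0.0857 at 1.80. Against ptprc, the differences of -0.75 for coro1a and 0.94 for spi1b had an exact permutation p of 0.0238 and an adjusted one of 0.0816. The ratio of irf8 stood at 0.428 to 0.614 in control, 0.523 to 0.656 in depleted and 0.329 to 0.566 in recovering testes (exact permutation p = 0.294, adjusted 0.452 for depleted against control). For mpx and lyz the ratio spread over 0.0439 to 0.797 and 0.149 to 4.20 within the controls alone, and no difference between states passed, the lowest exact permutation p being 0.254.

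**Figure D3:**
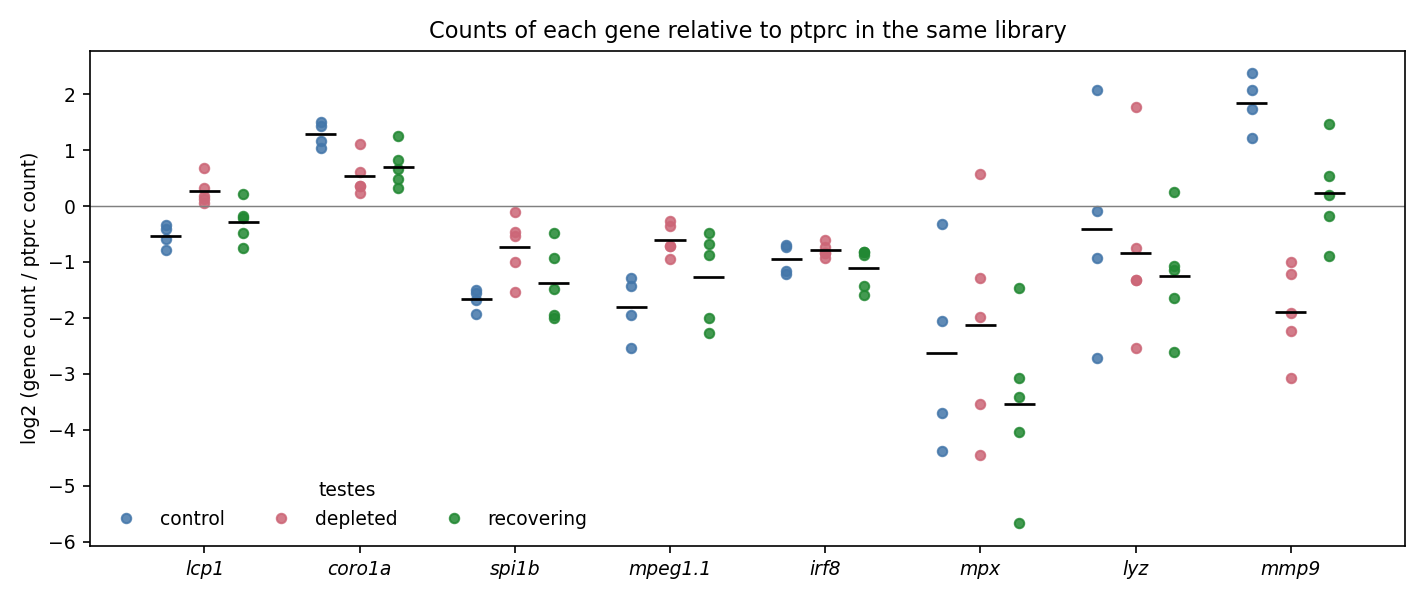
Log2 ratio of each gene's counts to those of ptprc in the same library, with 1 point per library and a bar at the group mean. For mmp9 the control ratios lie above 1 and the depleted ratios below 0 on the log2 scale, while the mpx and lyz ratios spread widely within every group.

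Other genes of immune cells were taken from lists matched by symbol. Of 12 further pan-leukocyte genes 6 could be matched to 1 identifier and 5 were tested, all 5 of which rose in depleted testes, with a median log2 fold change of 3.31. They include the phosphatase gene ptpn6 at 4.31 (adjusted p = 0.000130), the integrin gene itgb2 at 3.80 (adjusted p = 0.000462) and the cytokine receptor gene il2rga at 3.20 (adjusted p = 0.000116), and all 5 fell in recovering against depleted testes. Of 11 further macrophage genes tested, 10 rose with depletion and 9 fell from depleted to recovering testes. The complement genes c1qa and c1qb went from 4.53 and 8.05 CPM on average in control to 84.3 and 183 CPM in depleted testes, log2 fold changes of 4.23 (adjusted p = 0.000142) and 4.51 (adjusted p = 0.000112). The scavenger receptor gene marco changed by 4.29 (adjusted p = 0.000747) and the growth factor receptor gene csf1rb by 3.57 (adjusted p = 0.00104). The amino acid transporter gene slc7a7, at 0.78 (adjusted p = 0.116), was the exception, named after its value was seen. Of 7 further neutrophil genes 5 rose with depletion and 5 fell in recovering testes. Those that rose include genes of the oxidase that makes superoxide, cyba at 3.61 (adjusted p = 5.04e-05) and cybb at 2.73 (adjusted p = 0.000324), the factor cebpa at 3.46 (adjusted p = 0.000810) and the receptor csf3r at 2.44 (adjusted p = 0.00261). Macrophages use the same oxidase, and cebpa acts outside blood too. The other two, npsn at 2.56 (adjusted p = 0.128) and mmp13a at 2.26 (adjusted p = 0.0697), did not pass. Over all tested genes 34.2% rose with depletion, and the median log2 fold change of all was 0.0322. From depleted to recovering testes 30.5% of all tested genes fell.

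Most cytokine and B cell genes tested rose with depletion, while T and NK cell genes went both ways. Beside them, 34.2% of all tested genes rose with depletion and 30.5% fell from depleted to recovering testes. Of 4 inflammatory cytokine genes tested, tnfa, cxcl18b and tgfb1a rose with depletion. The gene tnfa, for tumour necrosis factor, stood at 0.104, 0, 0 and 0.0184 CPM in control, 6.64, 1.55, 0.965, 1.35 and 3.98 CPM in depleted and 5.21, 0.198, 0, 0.543 and 0.192 CPM in recovering testes (edgeR adjusted p = 0.00440 for depleted against control). Every depleted testis was above every control, and recovering replicate 1 stood far above the other recovering testes. The neutrophil-attracting chemokine gene cxcl18b went from 10.4 to 89.6 CPM, 3.11 (adjusted p = 0.000725) on the log2 scale. Of 9 T and NK cell genes 5 rose and 2 fell with depletion. The interleukin 7 receptor gene il7r rose by 2.39 (adjusted p = 0.00148) and the killer cell genes prf1.1 and nkl.2 by 3.02 (adjusted p = 0.000532) and 3.44 (adjusted p = 0.00736). Transcripts of prf1.1 were scarce, at 0.104 to 0.221 CPM in control and 0.424 to 2.47 CPM in depleted testes, where 3 counts are 0.356 to 0.424 CPM. For nkl.2, recovering replicate 2 at 41.7 CPM was above every depleted testis (9.13 to 40.3 CPM). The transcription factors runx3 and gata3, which T cells share with other cell types, fell, at -2.10 (adjusted p = 0.000311) and -1.58 (adjusted p = 0.00333), gata3 being named after its value was seen. Of 6 B cell genes 5 rose with depletion, but 2 fell in recovering testes. The immunoglobulin gene ighm stood at 44.5, 1.56, 0.766 and 3.30 CPM in control, 235, 172, 80.8, 49.2 and 269 CPM in depleted and 79.5, 3.24, 8.44, 4.67 and 162 CPM in recovering testes. Control replicate 1 stood far above the other controls, and recovering replicates 1 and 5 far above the other recovering testes. Its log2 fold change with depletion was 3.70 (adjusted p = 0.0328).

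Markers of the other somatic cells moved in the same direction as the leukocyte genes. With depletion 6 of 6 Leydig cell genes, 2 of 2 endothelial genes, 4 of 4 stromal and smooth muscle genes, 4 of 4 red blood cell genes, 2 of 2 thrombocyte genes and 3 of 5 Sertoli cell genes rose, while 7 of 12 germ cell genes fell. Of all tested genes, 34.2% rose and 32.1% fell with depletion. The 2 thrombocyte genes, itga2b and mpl, were the only ones matched from a list that also named mast cell genes. The median log2 fold changes were 2.90 for Leydig, 3.98 for endothelial, 4.43 for stromal, 3.87 for red blood cell, 2.63 for thrombocyte, 1.54 for Sertoli and -2.44 for germ cell genes, beside 3.13 for the 9 genes. The summed Leydig genes ranged over 705 to 1348 CPM in control and 1074 to 13774 CPM in depleted testes, and the summed stromal genes over 156 to 359.9 and 1830.5 to 8191 CPM. The leukocyte share was also measured against germ, Sertoli, Leydig, endothelial and stromal cells, as the log2 ratio of ptprc to the summed counts of a list, a measure added after the values were seen, with 15 exact permutation tests adjusted together. Against germ cells the ratio was 7.08 higher in depleted than in control testes (exact permutation p = 0.0159, adjusted 0.0476) and against Sertoli cells 1.83 higher (exact permutation p = 0.0159, adjusted 0.0476), both without overlap. The 12 germ cell genes had been used to check the depleted state. A higher ratio to them was therefore fixed beforehand and does not measure leukocytes. Against Leydig cells the difference was 0.51 and did not pass (exact permutation p = 0.738). Depleted replicate 5, highest in ptprc at 187 CPM, had a Leydig sum of 1074 CPM, against 4713 to 13774 CPM in the other depleted testes. The difference without that library was not tested. Against the 2 endothelial genes, cdh5 and tie1, the ratio was lower in depleted testes, by a log2 difference of -1.08 (exact permutation p = 0.0159, adjusted 0.0476). Against stromal genes it was -0.91 in depleted against control (exact permutation p = 0.0556, adjusted 0.139) and -1.05 in recovering against control testes, where the ranges did not overlap (exact permutation p = 0.00794, adjusted 0.0476). The part that the loss of germ cell RNA has in the rise of those 7 of the 9 genes that rose cannot be told apart from that of leukocyte number in these libraries.

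**Figure D4:**
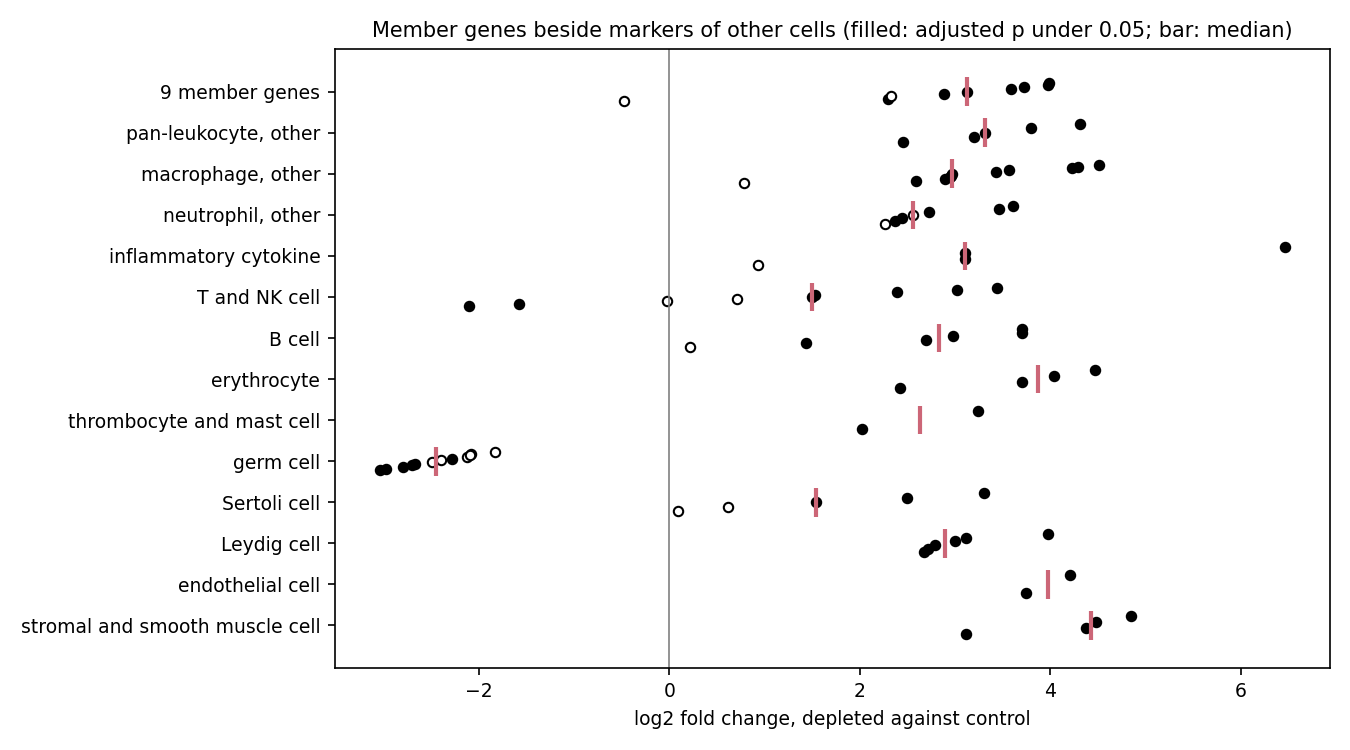
Log2 fold change in depleted against control testes of the 9 genes (top row) and of the tested genes of each other list, 1 point per gene, with a bar at the list's median. Filled points passed an adjusted p under 0.05. The thrombocyte and mast cell row holds only the thrombocyte genes itga2b and mpl. The medians of the 9 genes and of the other pan-leukocyte and macrophage lists lie near 3, those of endothelial, stromal and red blood cells near 4, and all 12 germ cell genes lie below 0.

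The gene whose pattern over the 14 libraries was most like that of ptprc, by the root-mean-square difference of centred log2 CPM, was pfn1, for the actin-binding protein profilin 1, at 0.264. Next, among genes with a symbol in the first 5, came PRCP, which encodes a lysosomal carboxypeptidase, at 0.270 and DSP, for the junction protein desmoplakin, at 0.273. The other two of the first 5, ENSDARG00000028514 and ENSDARG00000086246, have no symbol in the gene table used. Among the 9 genes irf8 was the closest to ptprc, at 0.277, followed by lcp1 at 0.415, coro1a at 0.419, spi1b at 0.602 and mpeg1.1 at 0.702. In the same order, 0.0282%, 0.747%, 0.832%, 5.11% and 9.12% of all tested genes were at least as close to ptprc. The genes lyz, mpx and mmp9 were at 1.40, 1.64 and 1.65, and 48.3% to 62.6% of all tested genes were at least as close to ptprc as they were.

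Some of the 9 genes have relatives among the identifiers, and how reads shared between copies were counted is not given in the sources used here. The gene table names the mpx identifier EPX, and a separate identifier named epx averaged 3.12 CPM in control, 0.559 CPM in depleted and 2.67 CPM in recovering testes. The paralog spi1a, at 3.74, 39.4 and 7.39 CPM in the same order, was highest in depleted testes like spi1b. Another identifier that the table calls MPEG1 averaged 8.99, 38.7 and 11.1 CPM.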

How the data were processed

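RNA sequencing was done on testis of adult wild-type zebrafish. RNA came from a miRNeasy kit and libraries from the TruSeq RNA kit v2, per the labels' protocols. The deposited values are counts, whole numbers per Ensembl gene identifier and library. Per the submitters' processing notes, the tools named are FastQC 0.10.1, TopHat2 2.0.5, SAMtools 0.1.18, HTSeq and DESeq, and the genome build is Zv9. The annotation release and the strand setting are not given in the sources used here, so overlapping genes on opposite strands may share reads. No gene coordinates, lengths or sequences of the authors' build were used.

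From these counts, genes were filtered with edgeR's filterByExpr, scaled by TMM and fitted with group as the only factor over all 14 libraries in edgeR 4.0.16 (R 4.3.3). The standard error is the log2 fold change divided by the square root of F. Adjustment ran over all 21277 genes. Ratios to ptprc used a pseudocount of 0.5 and exact permutation of samples, in which every relabelling at least as far from 0 was counted. Log2 CPM used a prior count of 2. A count of 3 corresponds to between 0.0553 and 0.424 CPM, depending on the library. Symbols came from a gene table that names 21948 of the 33752 identifiers, matched without regard to case where 1 identifier carried the symbol. This gave 81 of 118 list genes, of which 77 were tested. Of each list, up to 4 called genes with the largest change with depletion were eligible to be named. The 9 genes and the lists were chosen with earlier results of these data known. Same-group libraries differed by more than sampling noise in all 26 pairs (chi-square per degree of freedom 13.9 or more). The edgeR step was tested on simulated data: in depleted against control, with 20911 genes, it called 116 of 196 genes changed by 2 on the log2 scale and 6 unchanged genes. Few genes were changed there, in both directions, whereas 66.3% of tested genes were called in the data. These rates therefore do not carry over to the data. Alternatives were total counts or DESeq2 size factors for scaling, no filter, DESeq2 1.42.0, limma-voom (limma 3.58.1) with sample quality weights, only the 2 groups compared, an adjusted p under 0.01, a replicate block, only libraries under 20000000 counts, and each library left out in turn.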

Additional observations from a re-analysis of the deposited data

Results flagged for a closer look

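Of 27 sets of values, each 1 of the 9 genes in the libraries of 1 state, 10 held a library far from the others by Dixon's criterion, applied to CPM. Its rate of about 1 in 20 by chance assumes normally distributed values. CPM was used without a log2 transformation, and the SD of mpx and lyz exceeded their mean in every state. The 10 therefore cannot be set against that rate. All 10 were high values in the library that is the highest of its state for every one of the 9 genes in TMM-scaled CPM. In depleted replicate 5 these were lyz at 636 CPM against 45.3 in the next depleted testis, mpx at 279 against 46.6, coro1a at 405 against 146, lcp1 at 297 against 117 and irf8 at 123 against 59.2. In control replicate 1 they were lyz at 103 CPM against 14.2 in the next control, mpx at 19.6 against 3.59 and spi1b at 7.62 against 4.16. In recovering replicate 1 they were lyz at 65.9 CPM against 14.8 in the next recovering testis and mpx at 20.1 against 3.90. The sets share libraries and are not independent of each other. Without these 3 libraries 8 of the 9 genes rose in depleted testes and 8 fell in recovering against depleted testes (edgeR, adjusted p under 0.05), in place of 7 and 7. The libraries were chosen after the values were seen, for being the highest in these same 9 genes. Leaving them out narrows the range within each state, so the added calls give no separate support. In that setting 6621 of 21471 tested genes rose in depleted testes and 5820 fell in recovering against depleted testes.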

How the results depend on the processing

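The number of the 9 genes called stayed between 6 and 8 over the alternatives in both comparisons with depleted testes, also when each library was left out in turn. Among all tested genes, 10569 to 14923 were called in depleted against control and 7987 to 13874 in recovering against depleted testes. In recovering against control testes it was 0 throughout, except 3 in limma-voom with sample quality weights. Over the 3 comparisons the all-gene counts moved by more than 1.5 times in recovering against control testes, from 96 to 1353 in DESeq2, 1254 with only the 2 groups, 2374 in limma-voom, 236 with libraries under 20000000 counts, 9 with the replicate block, 0 to 556 with 1 library left out, and 0 without the highest library of each group or at an adjusted p under 0.01. In recovering against depleted testes an adjusted p under 0.01 left 7987 of 12598 genes. Of 645 values of single genes under alternatives, 589 kept direction and call, 21 lost the call, 13 gained it and 22 changed sign.

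Signs changed only for mmp9, mpx and lyz where no call was made, and the cause was not tested. DESeq2 gave no adjusted p for lyz in any of the comparisons. In recovering against depleted testes mmp9 was 0.27 with total counts, 0.0076 with DESeq2 size factors in edgeR and in DESeq2, 0.019 with no filter, 0.17 with the replicate block, 0.45 in limma-voom, 0.27 without the highest libraries, and -0.27 to 0.40 with 1 library left out. In recovering against control testes mpx and lyz were 0.54 and 0.29 with the replicate block, 0.11 and 0.24 in limma-voom and 0.11 and 0.33 without the highest libraries. With 1 library left out they ran from -1.69 to 1.61 and from -1.79 to 1.48.

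Of the 24 ratio differences, 4 passed, also with a pseudocount of 2. The number was 0 with libraries under 20000000 counts, without the highest libraries and with the replicate block, and 0 to 5 with 1 library left out. With libraries under 20000000 counts, without the highest libraries, with the block, or without a control or depleted library, fewer samples or pairs raise the smallest possible p in at least 1 of the comparisons with depleted testes, and these 0 counts say nothing about stability. Leaving out a recovering library does not raise it there: 5 passed without replicate 1, 4 without replicate 2, 4 or 5, and 0 without replicate 3. With lcp1 in place of ptprc, which is another ratio, 5 of 21 passed (exact permutation, adjusted p = 0.0333). In depleted against control testes these were mmp9 at -4.53, coro1a at -1.55 and irf8 at -0.64. In recovering against depleted testes they were mmp9 at 2.67 and coro1a at 0.72. With the same reference, mpx at -0.32 in depleted against control did not pass. Neither did irf8 at 0.24 and lyz at 0.14 in recovering against depleted testes. With 1 library left out the lyz ratio ran from -1.18 to 0.41 in depleted against control and from -0.84 to 0.24 in recovering against depleted testes, and the mpx ratio from -0.19 to 1.25 in depleted against control testes.

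The replicate numbers gave no sign of pairing the samples: the 13 pairs with equal numbers had a mean correlation of deviations of 0.0245, with 3 of them over 0.1. The 52 other pairs had a mean of -0.0061, with 14 of them over 0.1. With the replicate block 8 of the 9 genes were called in each comparison with depleted testes and 0 in recovering against control testes, where 65.3%, 56.5% and 0.0423% of all genes were called. The added gene was lyz, at 3.02 (adjusted p = 0.0307) and -2.73 (adjusted p = 0.0271). Depth limits mpx most, with 5 counts in control replicate 3.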
